A study of Homo sapiens with 10 samples.

Results

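IGF2BP1 knockdown was compared with control siRNA in ES-2, an established human cell line derived from an ovarian cancer, by small RNA sequencing. Cells had received a control siRNA (siC, 2 libraries) or an siRNA pool against IGF2BP1 (siIGF2BP1, 2 libraries), and all were grown in DMEM with serum. The labels give neither the time after transfection nor whether replicate libraries stem from separate cultures, and so each p-value reflects library-to-library spread that could be purely technical. Of 2576 mature miRNAs in the table, 665 had a normalised read count of at least 1 in at least 2 of these 4 libraries, and these 665 are described. A further 3 libraries with siRNAs against IGF2BP2 and 3 against IGF2BP3 entered the statistical fit only to help estimate the spread between libraries. The table holds miRNAs only, so the depletion of IGF2BP1 mRNA was not measured here.

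A miRNA is cut as a short double strand from a hairpin, and either strand, called the 5p or the 3p arm, can be loaded into an Argonaute protein. The loaded strand finds its mRNA targets mainly through its seed, bases 2 to 8 from its 5′ end, so miRNAs with an equal seed share many predicted targets. IGF2BP1 is an oncofetal RNA-binding protein that binds and stabilises mRNAs, and let-7 miRNAs are well-known repressors of IGF2BP1 itself and of other fetal growth genes. By its title, the series is about IGF2BP1 and the repression of oncogenic factors by miRNAs. The comparison asks whether miRNA levels themselves differed after the knockdown.

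The sequences below are the miRNAs that the results turn on, grouped by hairpin or by shared seed, from RefSeq (GRCh38.p14), in which 590 of the 665 miRNAs had a mature sequence. They are written 5′ to 3′, with the seed in capitals. The first set is the hypoxia-induced miRNA with the largest rise among called miRNAs, and both arms of the miR-424 hairpin with the relatives that share the seed of miR-424-5p.
miR-210-3p: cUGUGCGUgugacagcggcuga
miR-424-3p: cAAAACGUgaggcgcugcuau
miR-424-5p: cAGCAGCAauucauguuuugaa
miR-16-5p: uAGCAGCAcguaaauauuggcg
miR-15a-5p: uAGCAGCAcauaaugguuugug
miR-15b-5p: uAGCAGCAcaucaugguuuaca

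The second set shows the hairpins whose lesser arm rose, beside their other arm or a seed relative. The 3p arms of the miR-181a hairpins carry different seeds, and miR-27b-3p and miR-27a-3p carry the same one.
miR-181a-3p: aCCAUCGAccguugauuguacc
miR-181a-2-3p: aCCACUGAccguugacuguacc
miR-27b-5p: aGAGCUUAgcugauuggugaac
miR-27b-3p: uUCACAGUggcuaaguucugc
miR-27a-3p: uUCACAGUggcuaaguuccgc
miR-152-5p: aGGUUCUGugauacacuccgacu
miR-152-3p: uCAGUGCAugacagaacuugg

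The third set holds the 3 miRNAs that fell, a seed relative of one of them, further miRNAs that rose, and miR-1260a, the uncalled relative of miR-1260b. The seed of miR-148a-3p is also that of miR-148b-3p and of miR-152-3p above, so 1 arm of the miR-152 hairpin shares its seed with a miRNA that fell while its other arm rose.
miR-148a-3p: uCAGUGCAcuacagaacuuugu
miR-148b-3p: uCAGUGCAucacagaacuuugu
miR-183-5p: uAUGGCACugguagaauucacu
miR-182-5p: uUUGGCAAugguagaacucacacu
miR-10a-5p: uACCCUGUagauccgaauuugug
miR-132-3p: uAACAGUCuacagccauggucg
miR-1260b: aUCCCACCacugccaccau
miR-1260a: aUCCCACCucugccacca

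RefSeq places miR-210 on chromosome 11, miR-424 and miR-224 on chromosome X, miR-27b on chromosome 9, miR-183, miR-182 and miR-148a on chromosome 7, and miR-10a, miR-152 and miR-132 on chromosome 17. Each value below is the authors' normalised read count, given in the order siC C2, siC C3, siIGF2BP1 replicate 1, siIGF2BP1 replicate 2. The siIGF2BP1 libraries were deeper, with 1269743 and 1096008 reads, against 553288 and 733608 for siC. One read was therefore worth 0.803 and 0.882 in siIGF2BP1 and 1.65 and 1.33 in siC. Of the 665 miRNAs, 588 to 630 had a read in each library, 511 had a read in all 4, and 334 had a mean under 10, where few reads limit the precision.

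A miRNA was called changed at an adjusted p (limma, Benjamini-Hochberg) under 0.05. After IGF2BP1 knockdown 19 miRNAs rose and 3 fell. These 22 are 2.47% of the 889 miRNAs tested, with 2.14% higher and 0.337% lower, and all 22 are among the 665. At an unadjusted p under 0.05, 94 of the 665 were higher and 28 lower. The values of the groups did not overlap for any of the 22, and 14 of them changed at least 2-fold. A small p favours such separation, so for called miRNAs it adds no support, here or below. Over all 665, both siIGF2BP1 libraries lay above both siC libraries for 185 (27.8%) and below both for 106 (15.9%).

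The balance of rises and falls depended on the scaling. Among the 331 miRNAs with a mean of at least 10, the median log2 fold change was 0.16 as deposited, 0.07 with TMM factors, 0.08 per library total, -0.07 with median-of-ratios factors and -0.06 with upper-quartile scaling. With median-of-ratios factors limma called 13 higher and 15 lower, with upper-quartile scaling 10 higher and 9 lower, with library totals 17 higher and 7 lower, and with TMM factors 14 higher and 3 lower. A log2 fold change below is as deposited, so one near 0.16 lies at the median of these miRNAs, and one near that size can change sign with the scaling. No called miRNA changed its sign in any of the 17 alternatives.

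**Figure D1:**
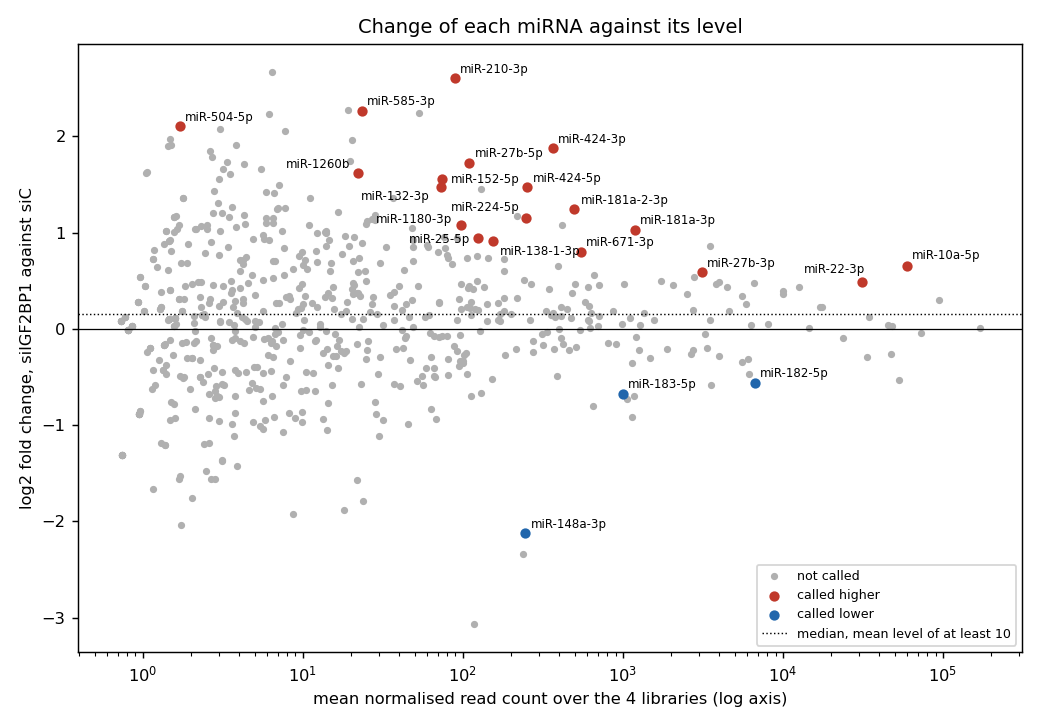
Log2 fold change of siIGF2BP1 against siC for each of the 665 miRNAs (points) by its mean normalised read count over the 4 libraries (log axis), with called miRNAs coloured and named and a dotted line at 0.16, the median where the mean reached 10. The 19 higher calls lie between the low miR-504-5p and the abundant miR-10a-5p, and the 3 lower calls are miR-148a-3p, miR-183-5p and miR-182-5p.

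miR-210-3p, the miRNA best known for its induction by hypoxia-inducible factors, rose most among the called miRNAs with a read in every library. Its values were 24.7, 24.0, 144 and 163, so both siC libraries were low and both siIGF2BP1 libraries high. They rest on 15, 18, 179 and 185 reads. The means were 24.3 ± 0.556 (SD, n = 2) in siC and 153 ± 13.6 (SD, n = 2) in siIGF2BP1, a 6.30-fold rise with a log2 fold change of 2.60 ± 0.28 (SE) and an adjusted p (limma) of 0.0003. Its other arm, miR-210-5p, was scarce, at 0, 2.66, 8.84 and 14.1, and was not called at an adjusted p (limma) of 0.22. miR-210-3p and miR-424-3p were the only ones called under all 13 other settings of the test and with each of the 4 libraries left out.

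The miR-424 hairpin, which is transcribed with miR-503, miR-542 and miR-450 in 1 cluster, gave more of both arms. miR-424-3p had 129, 186, 598 and 546, a 3.63-fold rise (log2 1.88 ± 0.20, adjusted p 0.0003, limma). miR-424-5p, which carries the miR-15/miR-16 seed known for repression of cyclins, had 124, 144, 389 and 355, a 2.78-fold rise (log2 1.47 ± 0.22, adjusted p 0.0036, limma). In both arms the lower siIGF2BP1 library exceeded the higher siC library by far more than libraries of 1 group differed. The miR-424-5p call was kept in 1 of the 4 leave-one-out fits.

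Of the 9 cluster members, those 2 arms were called and 0 fell. The cluster's median log2 fold change was 0.35, against 0.12 over all 665 miRNAs. miR-503-5p was at 14.8, 17.3, 32.1 and 29.1 (adjusted p 0.37, limma), with groups that did not overlap. miR-503-3p was at 3.30, 14.6, 24.1 and 39.7, with a wide gap between the siC libraries. miR-542-3p (13.2, 26.6, 23.3 and 17.6) and miR-450a-5p (13.2, 27.9, 21.7 and 28.2) overlapped between groups. Together the cluster took 0.0363% and 0.0465% of reads in siC and 0.111% and 0.110% in siIGF2BP1. With 2 libraries against 2, the exact permutation test of such a share can go no lower than p = 0.333, which is its value here.

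Several called rises were the lesser arm of their hairpin. Of the 22 called miRNAs 21 have both arms in the table, and 7 of these were the arm with the lower mean in siC. The 7 were miR-25-5p, miR-27b-5p, miR-138-1-3p, miR-181a-3p, miR-181a-2-3p, miR-152-5p and miR-424-5p. All 7 were higher after knockdown, but so were 18 of all 21, so the direction does not set them apart. miR-424-5p differed little from its partner in siC, at a mean of 134 against 157. For miR-181a-3p, miR-181a-2-3p and miR-138-1-3p the other arm is a sum over 2 genomic copies, which raises its level.

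miR-181a-3p, from the miR-181a-1 hairpin, was at 838, 724, 1459.7 and 1733 (log2 1.03 ± 0.17, adjusted p 0.0057, limma). miR-181a-2-3p, from the other miR-181a hairpin, was at 294, 290.1, 608 and 788 (log2 1.24 ± 0.18, adjusted p 0.0028, limma). The shared main arm, miR-181a-5p, a regulator of T-cell receptor signalling, was at 16732, 15681, 16747 and 21341 (adjusted p 0.53, limma), and 1 siIGF2BP1 library lay at the level of siC. Both 3p arms separated the groups clearly, and in the abundant 5p arm a knockdown library was nearly equal to the higher control library. Of the 8 miRNAs of the miR-181 family, 2 rose and 0 fell, with a median of 0.25.

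miR-27b is processed from a transcript that also carries miR-23b and miR-24. Its lesser arm, miR-27b-5p, was at 57.7, 43.9, 174 and 164, a 3.32-fold rise (log2 1.72 ± 0.30, adjusted p 0.0079, limma). Its main arm, miR-27b-3p, a repressor of adipogenic and angiogenic genes, was at 2543, 2419, 3966 and 3509 (log2 0.59 ± 0.14, adjusted p 0.0495, limma). The main arm's call held in only 2 of 13 other settings and in 0 of 4 leave-one-out fits, and the lesser arm's held in 12 of 13 but also in 0 of 4. The cluster mate miR-23b-3p was at 51.1, 70.5, 104 and 97.0 (adjusted p 0.19, limma), and miR-24-3p, which the miR-23a cluster also makes, was at 109, 114, 105 and 74.0. miR-23a-3p was at 458.5, 528.3, 457.9 and 389.6, so siIGF2BP1 replicate 1 lay barely below siC C2. Neither miR-23a-3p (adjusted p 0.66, limma) nor miR-24-3p (0.68) was called. Both were lower in each siIGF2BP1 library than in either siC library, and miR-23b-3p and both miR-27b arms were higher. Over all 665 miRNAs, 27.8% lay wholly above siC and 15.9% wholly below. Of 9 miRNAs of the clusters that hold miR-23, miR-24 and miR-27, 2 rose and 0 fell, with a median of 0.12 that becomes -0.12 with median-of-ratios factors.

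miR-152-5p was at 34.6, 39.9, 104 and 119, a 2.99-fold rise (log2 1.55 ± 0.27, adjusted p 0.0072, limma). Its partner miR-152-3p, a miR-148 relative linked to DNMT1 repression, was at 84.1, 78.5, 104 and 122 (adjusted p 0.33, limma). The lesser arm thus came level with the main one in the knockdown libraries. miR-25-5p, the lesser arm of a hairpin in the MCM7 gene, was at 89.1, 79.8, 169.5 and 157 (log2 0.94 ± 0.21, adjusted p 0.032, limma). Its main arm miR-25-3p was at 4836, 4955, 5541 and 6938 (adjusted p 0.27, limma). The miR-25-5p call was lost with TMM, median-of-ratios and upper-quartile scaling, among others. It was the only call among 19 miRNAs of the miR-17-92 and paralog clusters, whose median was -0.01.

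miR-10a-5p, which lies in the HOXB gene cluster and is the most abundant of the called miRNAs, was at 44432, 47730, 73100 and 71828. Its means were 46081 ± 2332 (SD, n = 2) and 72464 ± 899 (SD, n = 2), a 1.57-fold rise (log2 0.65 ± 0.09, adjusted p 0.0028, limma). Its other arm, miR-10a-3p, was at 34.6, 34.6, 56.2 and 70.5, higher in both knockdown libraries but not called (adjusted p 0.10, limma). miR-10b-5p, its counterpart in the HOXD cluster, was at 19362, 30426, 20985 and 24553, with overlapping groups and a log2 fold change of -0.10. Of the 8 HOX-cluster miRNAs, miR-10a-5p alone was called. Their reads made up 7.05% and 8.07% in siC and 9.29% and 10.0% in siIGF2BP1.

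The miRNAs of 17p13, miR-22 and the CREB-responsive miR-132 and miR-212, were all on the higher side. miR-132-3p was at 29.7, 47.9, 102 and 111 (log2 1.47 ± 0.30, adjusted p 0.023, limma). miR-22-3p was at 23936, 27968, 39064 and 33814 (log2 0.49 ± 0.11, adjusted p 0.032, limma). These 2 were called, and the others of the 6 had few reads: miR-132-5p at 4.95, 6.65, 17.7 and 15, miR-22-5p at 11.5, 10.6, 24.1 and 14.1, miR-212-3p at 4.95, 5.32, 11.2 and 8.82, and miR-212-5p at 0, 3.99, 3.21 and 5.29. The list's median was 1.02, and its lowest value under another scaling was 0.81. The miR-22-3p call held in 6 of 13 other settings and was absent with edgeR and DESeq2.

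miR-224 and miR-452 share a host gene, GABRE. miR-224-5p was at 150.1, 159.7, 366 and 324, a 2.22-fold rise (log2 1.15 ± 0.19, adjusted p 0.0057, limma). miR-452-5p was at 80.8, 75.9, 157 and 108 and was not called (adjusted p 0.18, limma). In all 4 arms of this pair both knockdown libraries exceeded both siC libraries, as in 27.8% of all 665 miRNAs, and the median log2 fold change was 1.11.

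The remaining rises came from hairpins outside these lists, apart from miR-1260b. miR-671-3p was at 416, 382, 676 and 715 (log2 0.80 ± 0.16, adjusted p 0.023, limma), while its 5p arm was at 97.3, 105, 126 and 119.9 (adjusted p 0.76, limma). miR-138-1-3p was at 89.1, 126, 198 and 204 (log2 0.91 ± 0.19, adjusted p 0.026, limma), and its main arm miR-138-5p at 485, 558, 574 and 698 (adjusted p 0.41, limma). miR-1180-3p was at 64.3, 59.9, 138 and 127 (log2 1.08 ± 0.26, adjusted p 0.047, limma). The miR-1180-3p call held in only 2 of 13 other settings, miR-671-3p's in 8 and miR-138-1-3p's in 9. miR-585-3p, hosted by SLIT3, was at 9.90, 5.32, 41.0 and 37.0 from 6, 4, 51 and 42 reads (log2 2.27 ± 0.50, adjusted p 0.032, limma).

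miR-1260b, an entry that overlaps other small RNAs, was at 9.90, 10.6, 29.7 and 37.9 (log2 1.62 ± 0.27, adjusted p 0.0065, limma). Its near-identical relative miR-1260a was at 6.60, 13.3, 26.5 and 20.3 (adjusted p 0.13, limma), and reads can be split between the pair. miR-504-5p was called at an adjusted p (limma) of 0.032 from 0, 0, 3 and 5 reads. That is at the floor of what these depths resolve, and no fold change is given.

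**Figure D2:**
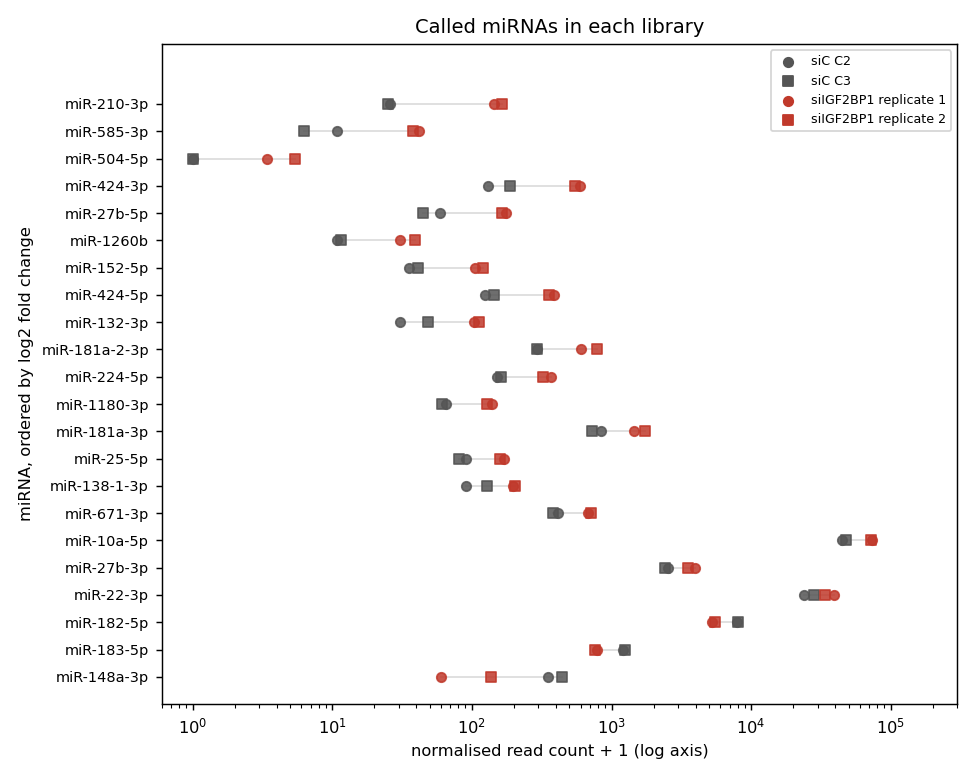
Normalised read count plus 1 (log axis) of the 22 called miRNAs in siC C2, siC C3 and siIGF2BP1 replicates 1 and 2, ordered by log2 fold change. In every row the red knockdown points lie on 1 side of the grey control points; the last 3 rows are the falls, and the siIGF2BP1 points of miR-148a-3p are the farthest apart of those 3.

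The 3 falls were miR-183-5p and miR-182-5p, cluster neighbours best known from sensory organs, and miR-148a-3p, a miRNA abundant in secretory and immune cells. miR-182-5p was at 7892, 8006, 5242 and 5532, with means of 7949 ± 80.4 (SD, n = 2) and 5387 ± 205 (SD, n = 2), a level 1.48-fold lower (log2 -0.56 ± 0.11, adjusted p 0.015, limma). miR-183-5p was at 1199, 1252, 783 and 755, 1.59-fold lower (log2 -0.67 ± 0.12, adjusted p 0.0091, limma). For both, libraries of 1 group lay close together and the groups far apart, as is likely for called miRNAs. Of the 5 members of this cluster 2 fell and 0 rose. Cluster mate miR-96-5p was at 14.8, 14.6, 12.1 and 12.3 (adjusted p 0.90, limma), and the passenger arms miR-182-3p and miR-183-3p had at most 11.2. The cluster took 0.999% and 0.951% of reads in siC and 0.593% and 0.652% in siIGF2BP1. The calls of miR-182-5p and miR-183-5p were kept by edgeR (adjusted p 0.00072 for each) and DESeq2, and lost in every leave-one-out fit.

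miR-148a-3p was at 350, 441, 58.6 and 136, a level 4.06-fold lower (log2 -2.12 ± 0.45, adjusted p 0.026, limma), and its 2 knockdown libraries differed from each other more than 2-fold. Its seed relatives behaved differently in value. miR-148b-3p, more abundant, was at 1922, 2132, 1744 and 1765 (adjusted p 0.65, limma), and miR-152-3p was higher, as given above. Of the 11 miRNAs of the miR-148/miR-152 and miR-130/miR-301 families 1 rose and 1 fell, and the median was -0.05. miR-148a-3p was lower still in the libraries with siRNAs against IGF2BP2 (21.2, 26.7 and 22.4) and IGF2BP3 (12.0, 26.0 and 34.5), so that the siC libraries, which all 3 knockdowns share as controls, held the highest values of this miRNA in the table.

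Just inside the threshold stood miR-27b-3p (adjusted p 0.0495) and miR-1180-3p (0.047), and just outside it miR-345-5p, miR-1275, miR-375 and miR-4788 (each 0.053, limma). miR-345-5p was at 539, 531, 765 and 809, with a gap between groups several times that within them. miR-375, an islet and neuroendocrine miRNA, was at 335, 89.2, 12.9 and 30.0, so its siC libraries differed more than 3-fold and both lay above siIGF2BP1. miR-26a-5p, a repressor of EZH2, was at 10584, 10852, 14690 and 14184 (adjusted p 0.055, limma). let-7d-5p was at 2281, 2262, 3524 and 3069 (adjusted p 0.069, limma). miR-155-5p, a miRNA of activated immune cells, was at 6771, 7547, 5699 and 4664 (adjusted p 0.074, limma).

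The quasi-likelihood test of edgeR on the recovered whole reads called 42 of 335 miRNAs (12.5%), 17 higher and 25 lower. It shared 18 calls with limma, which are 42.9% of its own calls and 81.8% of limma's. Its median log2 fold change was -0.12 over the miRNAs it tested. The falls called by edgeR and not by limma were mainly modest shifts of abundant miRNAs. miR-30a-5p was at 54269, 49634, 42392 and 43986 (edgeR adjusted p 0.0044), miR-29a-3p, a repressor of collagen genes, at 5903, 6526, 4867 and 4919 (0.0046), and miR-125b-5p at 3817, 4742, 3038 and 2661 (0.0070). In these 3, each siIGF2BP1 library lay below each siC library. miR-221-3p was at 35581, 37835, 29372 and 30595 (edgeR adjusted p 0.027), and its lesser arm miR-221-5p at 1381, 1492, 1097 and 710 (0.015). miR-31-3p was at 28.0, 38.6, 8.84 and 12.3 (edgeR adjusted p 0.033). The groups did not overlap in any of these either, and 15.9% of all 665 miRNAs lay wholly below siC. Separation is likely for miRNAs already called, so it adds no support to these calls. A false discovery rate under 0.05 is given to 25 miRNAs in the authors' deposited table for this comparison, and 20 of them are among the 22 called here.

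**Figure D3:**
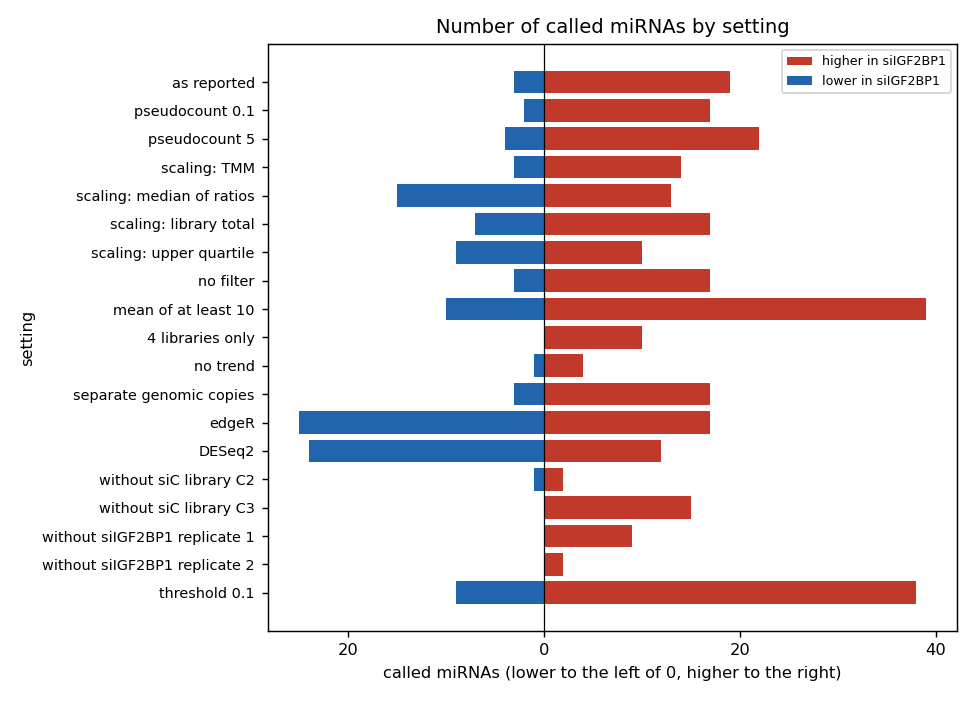
Number of called miRNAs (bars from 0; higher in siIGF2BP1 to the right in red, lower to the left in blue) as reported and under each alternative scaling, filter, model, tool or left-out library. As reported, 19 were higher and 3 lower; edgeR gave 17 and 25, DESeq2 12 and 24, and leaving out 1 library left between 2 and 15 calls.

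Because an mRNA meets all miRNAs with 1 seed together, values were summed over each seed and tested again. The 75 of the 665 miRNAs without a RefSeq sequence here, miR-10b-5p, miR-30d-5p and miR-375 among them, are in no sum, so a total covers only the miRNAs with a sequence. Of 243 seeds with a summed mean of at least 10, 39 were called (16.0%), 33 higher and 6 lower. For 34 of the 39 a single miRNA made up at least 90% of the sum of those with a sequence, and 19 were led by a called miRNA. This share is not on equal terms with the 2.47% of 889 single miRNAs, which were tested without that minimum mean. With the same minimum mean of 10, reached by 331 of the 665, limma on single miRNAs called 39 higher and 10 lower. More calls from summing over seeds can therefore not be read from the 16.0%. The median over all seeds was 0.18.

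Each total includes its called miRNA, so it follows that miRNA by arithmetic where the miRNA dominates the sum. For some called miRNAs the seed total followed them, and for others it did not. The miR-132/miR-212 total was at 34.6, 53.2, 113 and 119.9 (log2 1.42 ± 0.29, adjusted p 0.011, limma), and miR-132-3p made up 90.6% of it. The miR-27 total was at 3568, 3531, 5139.8 and 4649 (log2 0.46 ± 0.12, adjusted p 0.025, limma). Of this total miR-27b-3p made up 69.9% in siC and 76.4% in siIGF2BP1. By contrast miR-424-5p was only 2.66% of the miR-15/miR-16 seed total in siC and 6.37% in siIGF2BP1, where miR-16-5p made up 86.1% and 84.3%. That total was at 5151, 4908, 6133 and 5540 and was not called (log2 0.21 ± 0.10, adjusted p 0.19, limma).

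miR-16-5p was at 4544, 4114, 5163 and 4676 (adjusted p 0.57, limma). miR-15b-5p was at 279, 402, 304 and 291, and miR-15a-5p at 191, 185, 235 and 185. Of the 7 miR-15/miR-16 relatives miR-424-5p alone was called. The miR-148/miR-152 seed total likewise was not called (log2 -0.35 ± 0.13, adjusted p 0.11, limma), and miR-148a-3p was 15.8% of it in siC and 4.95% in siIGF2BP1.

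Among the called totals of several members without a called miRNA, the miR-146a/b total, of NF-kappaB-induced miRNAs, was at 620.2, 614, 865 and 788 (log2 0.42 ± 0.10, adjusted p 0.022, limma). The miR-26a/b total had a log2 fold change of 0.38 ± 0.10 (adjusted p 0.025, limma), and the sum of let-7 3p arms led by let-7a-3p one of 0.60 ± 0.15 (adjusted p 0.025, limma). The miR-29 total fell, at 6116, 6757, 5047 and 5062 (log2 -0.35 ± 0.10, adjusted p 0.039, limma). The let-7 seed total, the largest of all, was at 261480, 297567, 315394 and 269097, with overlapping groups (log2 0.06 ± 0.11, adjusted p 0.75, limma).

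**Figure D4:**
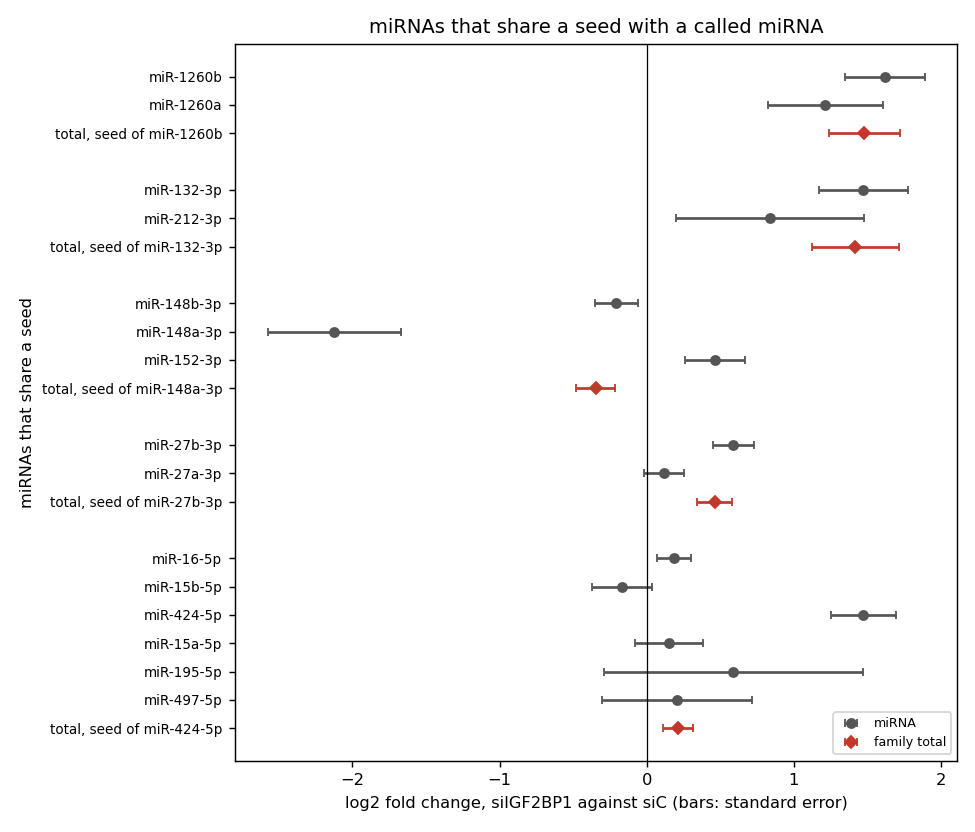
Log2 fold change with its standard error (bars) for every miRNA that shares a seed with one of 5 called miRNAs (grey circles) and for the family total (red diamonds). miR-424-5p and miR-148a-3p stand far from their relatives, and their family totals lie near those of the abundant miR-16-5p and miR-148b-3p; the miR-1260, miR-132/miR-212 and miR-27 totals lie near their called member.

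The ratio of the 2 arms of a hairpin does not depend on the scaling of the libraries, apart from the added pseudocount. Of 69 hairpins with both arms at a mean of at least 10, the ratio was called for 2 (2.90%), and 8 had an unadjusted p under 0.05. The 5p arm of miR-27b per 3p arm was 0.0227 and 0.0182 in siC and 0.0438 and 0.0467 in siIGF2BP1, a log2 change of 1.14 ± 0.25 (adjusted p 0.049, limma). For miR-152 it was 0.412 and 0.508 in siC and 0.992 and 0.978 in siIGF2BP1 (log2 change 1.09 ± 0.25, adjusted p 0.049, limma). In both hairpins the ratio about doubled in every comparison of a knockdown library with a control library, from a scarce 5p arm for miR-27b and from a comparable one for miR-152.

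Both ratio calls were lost when only the 4 libraries compared were fitted and when any 1 of these libraries was left out. Next stood miR-181a, with 20.0 and 21.7 in siC and 11.5 and 12.3 in siIGF2BP1 (log2 change -0.81 ± 0.23, adjusted p 0.12, limma). Its 5p arm is a sum over 2 genomic copies, so this ratio is not that of a single hairpin. miR-3607 followed, with 0.819 and 0.954 in siC and 0.331 and 0.311 in siIGF2BP1 (adjusted p 0.14, limma). Then came miR-31, with 131 and 91.5 in siC and 347 and 262 in siIGF2BP1 (adjusted p 0.24, limma). In 55 of the 69 hairpins both arms moved to the same side of 0. miR-424 and miR-10a were among these.

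**Figure D5:**
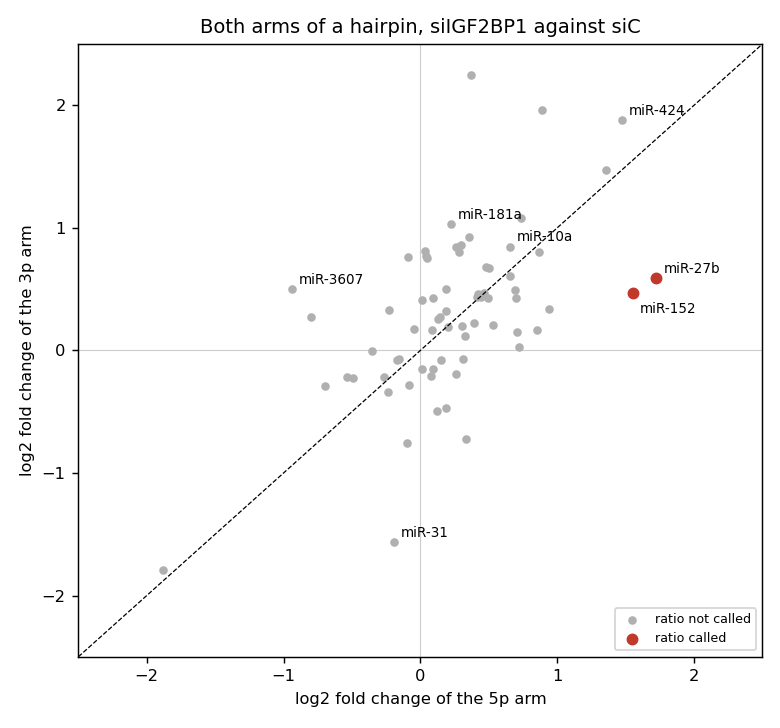
Log2 fold change of the 5p arm against that of the 3p arm for 69 hairpins (points), with the line of equal change dashed and the 2 called ratios in red. miR-27b and miR-152 lie to the right of the line, with a larger rise of the 5p arm, and miR-424 lies near it with both arms up.

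Of the 10 most abundant miRNAs limma called miR-10a-5p alone, and edgeR also called the falls of miR-30a-5p and miR-221-3p given above. let-7a-5p, the most abundant of all, was at 155683, 181271, 188859 and 151964, so the groups covered nearly the same range (log2 0.01 ± 0.13, adjusted p 1, limma). At an unadjusted p under 0.05, 94 of all 665 miRNAs were higher and 28 lower. Of the 9 let-7 miRNAs 0 were called by limma and 4 were higher at that unadjusted p (let-7b-5p, let-7d-5p, let-7e-5p and let-7g-5p). Their median was 0.12, close to that of all miRNAs, and became -0.11 with median-of-ratios factors. let-7b-5p was at 1262, 1605, 2169 and 1866, and let-7e-5p at 4920.2, 6084, 8287 and 7032, each higher in both knockdown libraries. let-7i-5p was at 43548, 46685, 46107 and 46261. Together the family took 28.7% and 30.5% of reads in siC and 30.9% and 27.9% in siIGF2BP1.

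miR-21-5p, an oncogenic miRNA that represses PDCD4, was at 84161, 85862, 104454 and 104483 (log2 0.30 ± 0.09, adjusted p 0.12, limma). Its groups were far apart relative to their spread as deposited, but edgeR gave a log2 fold change of 0.04. miR-92a-3p was at 75517, 73238, 70248 and 74593, and miR-222-3p, a repressor of CDKN1B, at 48465, 46322, 48934 and 47897, both with overlapping groups. miR-100-5p was at 57226, 67081, 55185 and 33145, and the second knockdown library was far below the first (adjusted p 0.39, limma). It weighs on the miR-99/miR-100/miR-125 share, 7.64% and 8.31% in siC and 6.73% and 4.59% in siIGF2BP1.

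The other lists held few calls. By limma 0 were called among 4 of miR-221/miR-222 (median -0.13), 6 of the miR-29 family (-0.29), 5 of the miR-30 family (0.05), 5 of the miR-26 family (-0.08), 6 inflammation miRNAs (0.34) and 4 of miR-191/miR-425 (0.07). At an unadjusted p under 0.05 the numbers higher and lower were 1 and 2 for miR-221/miR-222, 0 and 2 for miR-29, 1 and 2 for miR-30, 1 and 0 for miR-26, 4 and 1 for inflammation, and 0 and 0 for miR-191/miR-425. Over all 665 miRNAs they were 94 and 28. The medians of miR-30 and miR-191/miR-425 turned negative with TMM factors. Of the p53-induced miR-34 miRNAs only 2 of 6 passed the minimum value, with miR-34a-5p at 4.95, 9.32, 2.41 and 8.82. Of 29 lists 16 had shares of reads that did not overlap between the groups; among single miRNAs 27.8% lay wholly above and 15.9% wholly below.

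Some marker miRNAs of other cell types differed between libraries of the same group, and others did not. Blood-cell miR-451a was at 67.6, 660.1, 7.23 and 213, and miR-144-3p of the same locus at 11.5, 62.5, 2.41 and 18.5. In contrast, miR-142-5p of the same list was steady, at 452, 397, 419 and 375. miR-142-3p was at 37.9, 33.3, 18.5 and 22.9, similar within each group. The 7 blood miRNAs summed to 0.0647% and 0.122% of reads in siC and 0.0439% and 0.0681% in siIGF2BP1. All 7 had a negative log2 fold change, with 0 called by limma and 0 at an unadjusted p under 0.05, and miR-223-3p was at 0 in 1 library of each group. The neural miR-129-5p was at 59.4, 47.9, 61.1 and 353, high in 1 knockdown library only. Of the 7 listed epithelial miRNAs of the miR-200 family and its like, 6 have an entry. Of these only miR-141-3p passed the minimum value, with 3.30, 0, 0.803 and 1.76. The markers of epithelium with an entry were thus at or near 0 in this ovarian cancer line. The 56 miRNAs of the imprinted 14q32 cluster took 0.447% and 0.206% in siC and 0.176% and 0.266% in siIGF2BP1, with 0 called by limma and a median of -0.15. The part of these differences in the lower values of miR-148a-3p and miR-375 was not tested. In bulk libraries of this cell line the source of these marker reads cannot be told, and it was not tested.

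The siC libraries also differed from each other in single miRNAs. For C2 and C3 the values were 0 and 41.3 for miR-335-5p, 13.2 and 164 for miR-204-5p, and 407 and 1336 for miR-181c-5p. Among the 331 miRNAs with a mean of at least 10, 44 differed at least 2-fold between the siC libraries and 25 between the siIGF2BP1 libraries. Between the group means 39 did, 31 higher and 8 lower. The median absolute log2 difference was 0.24 between siC libraries, 0.23 between siIGF2BP1 libraries and 0.36 between groups. Values within a group compare single libraries and those between groups compare means of 2, which vary less. These medians and the 2-fold counts are therefore not on equal terms.

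For some of the called miRNAs the levels with the other knockdowns, which share the siC controls, stand beside these. Apart from miR-148a-3p above, the other called miRNAs are not covered, so these few do not represent all calls. miR-210-3p was at 28.3, 28.6 and 19.0 with siRNAs against IGF2BP2 and at 20.0, 18.9 and 20.2 with those against IGF2BP3, near the siC values. miR-424-3p was at 259, 271 and 235 and at 162, 125 and 155, and miR-585-3p had at most 9.46. miR-27b-5p, at 20.7 to 28.3 and 23.9 to 40.4, lay below siC. miR-1260b, in contrast, was at 28.6 to 31.1 and 41.4 to 44.0, as high as with siIGF2BP1, so for this miRNA the siC libraries were the low ones.

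Few miRNAs were read in only 1 of the groups. Among the 665, 7 had a read in both siIGF2BP1 libraries and in neither siC library, and 8 the reverse, with at most 5 reads in any library. Over all miRNAs of the table the numbers were 37 and 8. A single read passed the minimum value of 1 in the shallower siC libraries and not in the deeper siIGF2BP1 libraries, so the 2 counts among the 665 were not made on equal terms. miR-676-5p was at 2.41 and 3.53 and miR-3125 at 2.41 and 4.41 in siIGF2BP1, and miR-4722-5p at 1.65 and 5.32 in siC. These counts lie at or near the floor of 3 reads per library, and only miR-504-5p, given above, passed the test among them.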

How the data were processed

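Small RNA libraries were made from total RNA with an Illumina TruSeq kit and size selection, per the labels' protocols. Tools listed in the submitters' processing notes are featureCounts 1.4.6, Bowtie2 2.2.4, edgeR 3.12 and cutadapt 1.6, with the build hg19. Settings, miRNA release and scaling method were not given in the sources used here. Per miRNA and library, the authors deposited a normalised signal. In each of the 10 columns 100% of values are whole multiples of 1 read within 0.01 reads, so reads could be recovered. A log2 fold change made by the authors, and their p-value with its false discovery rate (FDR), are in the deposited table too and serve only where that table is named. No coordinates are printed because the annotation at hand is of another build than hg19.

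The 218 rows for further genomic copies were summed into 2576 miRNAs, after a check that reads were divided between copies (17 miRNAs with at least 2000 reads, median chi-square per degree of freedom 1.34). How reads of near-identical miRNAs were assigned is not stated. Control columns match no single control sample by name and are called C2 and C3.

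The design foresaw edgeR for counts and limma for normalised values. The main test was therefore limma 3.58.1 (R 4.3.3) with an intensity trend on log2(value + 1), on 889 miRNAs that reached a value of 1 in 2 or more of 10 libraries, all 4 groups in 1 fit, adjusted by Benjamini-Hochberg at 0.05. Folds on this scale understate changes of low miRNAs. Seed sums and arm ratios (both arms at a mean of at least 10) were fitted likewise, the ratios without a trend. Alternatives were pseudocounts 0.1 and 5, 4 scalings, filters, limma without a trend, edgeR 4.0.16 and DESeq2 1.42.0 on recovered reads, and each library left out. Shares of reads were compared with exact permutation tests in scipy 1.17.1. The fits were also run on simulated reads with a single fixed dispersion for all miRNAs, so that run does not vouch for the calls made here.

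The miRNAs described, the 29 lists and the tests were chosen with earlier results of these data known. Named are all called miRNAs, their other arms, seed relatives and cluster mates, the 10 most abundant, the 10 next by p, up to 4 of each list, and up to 5 read in 1 group only; miRNAs called by edgeR alone, those differing most between the siC libraries and a few further list members were picked after their values were seen.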

Additional observations from a re-analysis of the deposited data

How the results depend on the processing

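The 22 called miRNAs (19 higher, 3 lower) became 49 (39 and 10) when only miRNAs with a mean of at least 10 were tested, 10 (10 and 0) with only the 4 libraries compared in the fit, 5 (4 and 1) without the intensity trend, 42 (17 and 25) with edgeR, 36 (12 and 24) with DESeq2 and 47 (38 and 9) at a threshold of 0.1. Other pseudocounts, scalings, no filter and separate genomic copies gave 17 to 28. Leaving out 1 library gave 2 to 15 calls: 3 without siC C2, 15 without siC C3, 9 without siIGF2BP1 replicate 1 and 2 without replicate 2. The 39 seed totals became 18 with 4 libraries, 25 with TMM factors and 14 to 25 with 1 library left out (19 without siC C2, 25 without siC C3, 21 without siIGF2BP1 replicate 1, 14 without replicate 2). The 2 arm ratios became 4 at a minimum mean of 50, 0 with 4 libraries (limma, where 8 had an unadjusted p under 0.05 in the full fit) and 0 to 1 with 1 library left out. Fits with fewer libraries have fewer degrees of freedom; for the other settings the cause was not tested. No called miRNA changed sign in the 17 alternatives, 2 of the 22 passed all of them, and 9 passed no leave-one-out fit. Of the 146 other named miRNAs 55 changed sign at least once. When a group is left with 1 library, that library is assumed to vary like the others. No paired analysis was possible because the control columns carry no replicate number.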
